A study of Mus musculus with 2 samples.

Results

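The genes of 10 transcription factors were followed through the barcodes of the mouse cochlear stria vascularis, namely Sox17, Sox18, Sox7, Erg, Fli1, Foxq1, Foxf2, Foxc1, Tbx2 and Nr2f2. They were chosen by name as factors of the endothelial and mural lineages, with earlier results of these data known. All 10 were found by Ensembl identifier in both count matrices, among 27040 identifiers that the matrices share. The study made 2 single-cell libraries with the 10x Chromium 3′ chemistry. One came from 10 Tie2-GFP mice, in which the promoter of Tek (Tie2) drives GFP in endothelial cells (ECs), and the other from 10 NG2-DsRed mice, in which the promoter of Cspg4 (NG2) drives DsRed in pericytes (PCs). Both groups were transgenic reporter mice of both sexes, 1 to 3 months old, with no treatment given in the labels, and the tissue of 20 cochleae was pooled into 1 library per line. There is therefore 1 sample per line and no test, and the line, the batch and the software version of a library cannot be told apart. Every interval below covers counting error only, at 95% confidence.

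The stria vascularis is a dense capillary bed within an epithelium that maintains the endocochlear potential. ECs line its vessels, mural cells (pericytes and smooth muscle cells) wrap them, and intermediate cells are pigment cells derived from melanocyte precursors. SOX F factors (Sox7, Sox17, Sox18) and the ETS factors Erg and Fli1 bind the enhancers of endothelial genes and hold endothelial identity. Forkhead, T-box and nuclear receptor factors are used more widely, in mesenchyme, mural cells and pigment cells as well as in ECs.

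Barcodes were sorted by genes other than the 10 factors. An endothelial barcode had a UMI for at least 4 of the 6 genes Pecam1, Cdh5, Cldn5, Flt1, Egfl7 and Ramp2. A mural barcode had a UMI for at least 3 of the 4 genes Pdgfrb, Rgs5, Vtn and Notch3 and for at most 1 of those endothelial genes. An intermediate barcode had a UMI for all 3 of Dct, Tyr and Kcnj10. The Tie2-GFP library (633 barcodes, 5432289 UMIs) held 379 endothelial, 4 mural and 87 intermediate barcodes, and 163 of no class. The NG2-DsRed library (201 barcodes, 1232599 UMIs) held 60 endothelial, 97 mural and 25 intermediate barcodes, and 21 of no class. The labels call the Tie2-GFP cells endothelial and the NG2-DsRed cells pericytes, so each library also held barcodes of other classes than its label. The libraries shared 0 barcodes.

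Several features of these classes bear on every value below. The 4 mural barcodes of the Tie2-GFP library held 12355 UMIs together, so that a gene without a UMI there could still lie at 243 CPM (UMIs of a gene per 1000000 UMIs of the class). Of the 60 endothelial barcodes of the NG2-DsRed library, 34 also had a UMI for at least 3 of the 4 mural genes and only 16 for at most 1, against 26 and 347 of the 379 in the Tie2-GFP library. In the Tie2-GFP library the 26 barcodes with both sets of genes had a median of 17782.5 UMIs, against 7233 for the 347. Among the 25 intermediate barcodes of the NG2-DsRed library, 2 also met the endothelial rule. Mitochondrial genes took more than 5% of the UMIs in 79 of 87 and in 16 of 25 intermediate barcodes. No doublet caller was run, and barcodes with markers of a pair of classes were counted and set apart instead. The mural rule allows at most 1 endothelial gene, but the endothelial rule sets no limit on mural genes. Low levels of EC factors in mural barcodes therefore hold for this rule.

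Genes that the sorting did not use matched the class names for the most part. All 8 of a further set of endothelial genes (Tie1, Tek, Kdr, Ptprb, Emcn, Esam, Cd93, Slco1a4) were found in the endothelial barcodes, with a summed level of 4476 CPM in the Tie2-GFP library and 3547 CPM in the NG2-DsRed library. In the mural barcodes of the NG2-DsRed library they summed to 647 CPM, of which Esam, an adhesion molecule, made up 469 CPM, while Tek and Kdr were at 0. All 8 further mural genes (Cspg4, Kcnj8, Abcc9, Des, Higd1b, Ndufa4l2, Acta2, Tagln) were found in those mural barcodes and summed to 11103 CPM. They summed to 10.4 CPM in the 347 endothelial barcodes of the Tie2-GFP library with at most 1 mural gene, where Cspg4 was at 0. Over all endothelial barcodes they summed to 205 CPM in the Tie2-GFP library and to 1728 CPM in the NG2-DsRed library. In the latter, the class compared with mural barcodes below, all 8 were found. Further pigment cell genes summed to 2899 and 2717 CPM in the intermediate barcodes of the Tie2-GFP and NG2-DsRed libraries, but among those genes Tyrp1 was at 0 and Pmel had 1 UMI in the intermediate barcodes of each library.

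The factors fell into 3 patterns. Sox17, Sox18, Sox7, Erg, Fli1 and Foxq1 were found in ECs and were at or near 0 in mural and intermediate barcodes. Foxf2 and Foxc1 were found in both ECs and mural barcodes. Tbx2 and Nr2f2 were highest outside the ECs, Tbx2 in both mural and intermediate barcodes and Nr2f2 in mural barcodes. Within the NG2-DsRed library, which holds both vascular classes, 7 of the 10 factors were at least 2-fold higher in endothelial than in mural barcodes (Sox17, Sox18, Sox7, Erg, Fli1, Foxq1 and Foxf2), where 13.8% of 8885 genes were. The other direction held for 2 factors, Tbx2 and Nr2f2, where 19.7% of genes were at least 2-fold higher in mural barcodes. A gene counted here had at least 10 UMIs over both classes, and 0.5 was added to each sum. The median log2 ratio of endothelial to mural level was 4.93 over the 10 factors and -0.18 over all genes compared. The 10 were picked as lineage factors, so they are not an unselected list beside all genes.

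**Figure D1:**
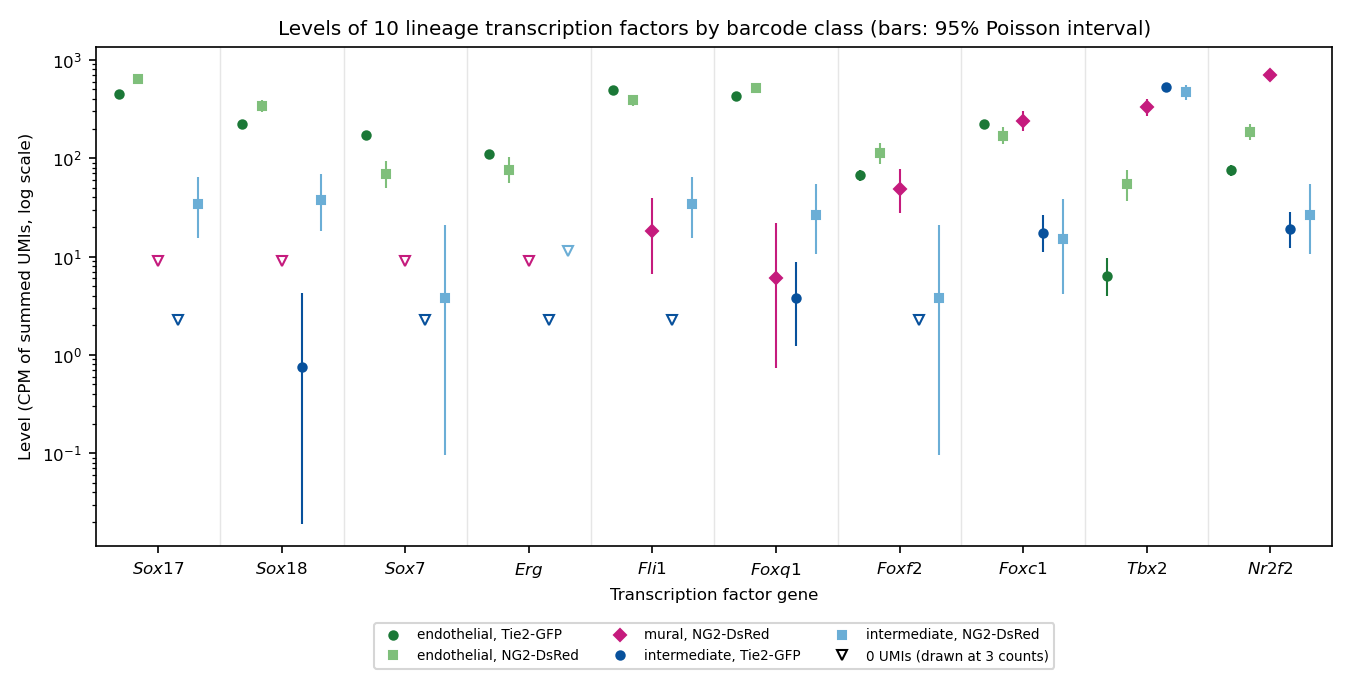
Level of each factor in CPM of the UMIs summed over a barcode class, on a log scale, in the endothelial and intermediate barcodes of both libraries and the mural barcodes of the NG2-DsRed library, with bars for the 95% Poisson interval. Open triangles stand for 0 UMIs and are drawn at the level of 3 counts. Sox17, Sox18, Sox7 and Erg have open triangles in mural barcodes, whereas Nr2f2 reaches 698 CPM there and Tbx2 533 CPM in the intermediate barcodes of the Tie2-GFP library.

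Sox17 (chr1:4490931-4497354, minus strand, GRCm38), a SOX F factor with a known role in arterial identity, had 1543 UMIs in the 379 endothelial barcodes of the Tie2-GFP library, or 449 CPM (427 to 472). It had 378 UMIs, or 641 CPM (578 to 708), in the 60 of the NG2-DsRed library. The 97 mural barcodes held 0 Sox17 UMIs, which allows up to 9.03 CPM and a share of up to 3.09% of barcodes with a UMI. Against that limit Sox17 was at least 71.0-fold higher in endothelial than in mural barcodes of the same library. With the counting error of both classes, the lower limit of its log2 ratio was 5.84. The 87 intermediate barcodes of the Tie2-GFP library also held 0 UMIs, although their median depth of 15955 UMIs was more than that of the endothelial barcodes (7431), and the level in ECs was at least 197-fold higher. The 9 Sox17 UMIs in intermediate barcodes of the NG2-DsRed library all lay in the 2 barcodes that also met the endothelial rule. Sox17 was not a rare message in a few cells, since 320 of 379 (84.4%, interval 80.4 to 87.9%) and 56 of 60 (93.3%, 83.8 to 98.2%) endothelial barcodes had a UMI, with a median of 3 and 5 UMIs and at most 27 and 29.

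Sox18 (chr2:181669836-181671640, minus strand), the SOX F factor mutated in ragged mice, followed the same pattern. It had 766 UMIs in Tie2-GFP endothelial barcodes (223 CPM, 208 to 239) and 202 UMIs in those of the NG2-DsRed library (342 CPM, 297 to 393). Mural barcodes held 0 UMIs, at least 37.9-fold less, and the 87 intermediate barcodes held 1 UMI. The lower limit of the log2 ratio of endothelial to mural level was 4.93. All 10 Sox18 UMIs of the NG2-DsRed intermediate barcodes again lay in the 2 barcodes of both classes.

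Sox7 (chr14:63943673-63950732, plus strand), the remaining member of the group, had 592 UMIs in Tie2-GFP endothelial barcodes (172 CPM, 159 to 187) and 41 in those of the NG2-DsRed library (69.5 CPM, 49.9 to 94.3). It had 0 UMIs in mural barcodes, at least 7.70-fold less (lower limit of the log2 ratio 2.58), and 0 in the 87 intermediate barcodes. At least 1 SOX F gene had a UMI in 351 of 379 (92.6%) Tie2-GFP and 58 of 60 (96.7%) NG2-DsRed endothelial barcodes, and all 3 did in 147 (38.8%) and 24 (40%). None of the 97 mural barcodes and 1 of the 87 intermediate barcodes had a UMI for any of the 3.

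Erg, an ETS factor on which endothelial gene expression depends, had 377 UMIs in the Tie2-GFP endothelial barcodes (109.8 CPM, 99.0 to 121). The NG2-DsRed endothelial barcodes held 45 UMIs (76.3 CPM, 55.6 to 102). No UMI was found in the 97 mural, the 87 or the 25 intermediate barcodes. The level in ECs was at least 8.45-fold that of mural barcodes (lower limit of the log2 ratio 2.72). It was at least 48.1-fold that of the Tie2-GFP intermediate barcodes (lower limit 5.28).

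Fli1, the ETS factor closest to Erg and also used by blood cells, had 1708 UMIs in the Tie2-GFP endothelial barcodes (497 CPM, 474 to 522) and 229 in those of the NG2-DsRed library (388 CPM, 339 to 442). It had 6 UMIs in 2 of the 97 mural barcodes (18.1 CPM, 6.63 to 39.3), a 21.5-fold lower level (9.72 to 59.2). The 87 intermediate barcodes held 0 UMIs, at least 218-fold less (lower limit of the log2 ratio 7.47). The 9 UMIs of the NG2-DsRed intermediate barcodes (34.1 CPM, 11.4-fold less) all lay in the 2 barcodes that also met the endothelial rule. In the Tie2-GFP library 332 of 379 endothelial barcodes (87.6%) had a Fli1 UMI and 204 (53.8%) an Erg UMI, and both were found together in 185.

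The genome gives context for these ETS values. Erg (chr16:95359169-95586593, minus strand, GRCm38) spans 227425 bases, of which 1.52% are exonic, and Fli1 (chr9:32422204-32542861, minus strand) spans 120658 bases, of which 2.89% are exonic. Whether reads in introns were counted is not stated, so the values of these long genes depend on an unstated choice. Each lies beside another ETS gene, Erg 115 kb from Ets2 and Fli1 93.4 kb from Ets1. Ets1, which is also active outside vessels, did not share the endothelial restriction of Fli1: it stood at 516 CPM (1773 UMIs) in Tie2-GFP endothelial barcodes, at 251 CPM in NG2-DsRed endothelial barcodes and at 271 CPM in mural barcodes, with a log2 ratio of endothelial to mural level of -0.11 (-0.50 to 0.28). Ets2 stood at 127 CPM in endothelial and 30.1 CPM in mural barcodes of the NG2-DsRed library, a log2 ratio of 2.08 (1.12 to 3.20).

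**Figure D2:**
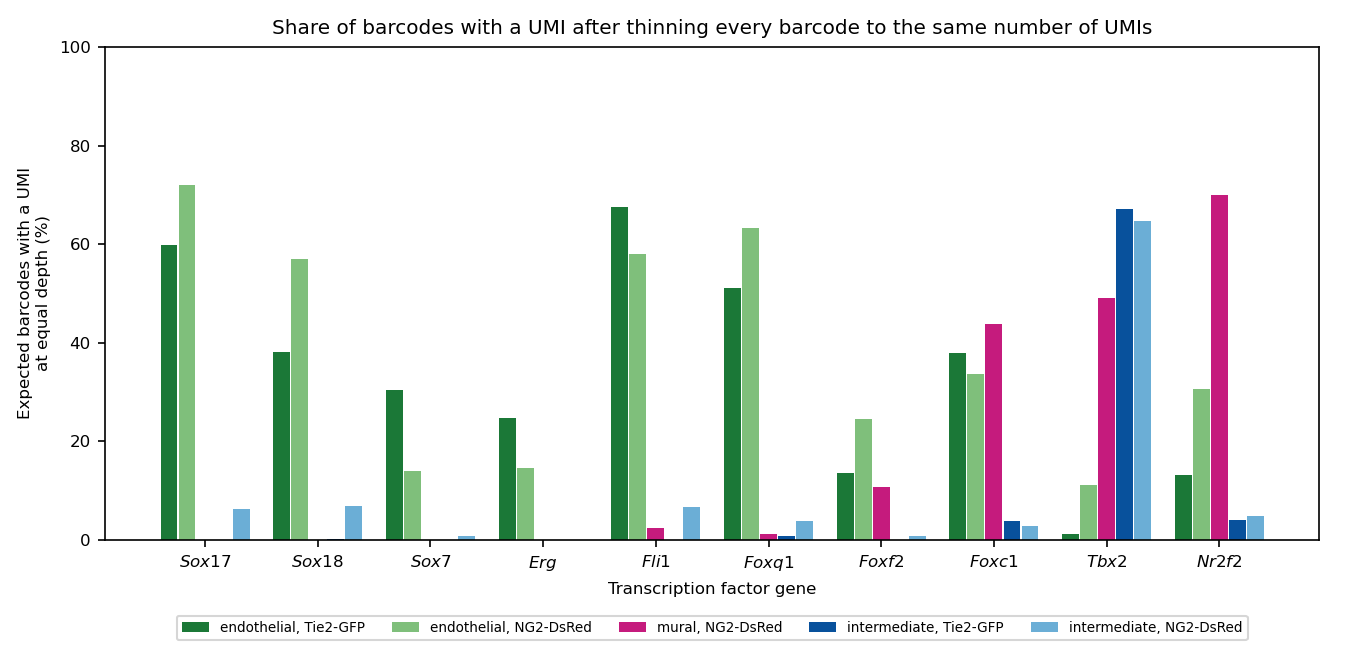
Expected percent of barcodes with a UMI for each factor (vertical axis) once every barcode is thinned to 2527 UMIs, by class and library, with shallower barcodes left out and no error bars drawn. At this equal depth Sox17 is expected in 59.8% and 72.0% of endothelial barcodes and 0 mural barcodes, and Nr2f2 in 70.0% of mural barcodes.

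The forkhead genes Foxq1, Foxf2 and Foxc1 are neighbours on chromosome 13. Foxq1 (chr13:31556134-31560976) and Foxc1 (chr13:31806633-31812476) have a single exon each, and Foxf2 (chr13:31625816-31631403) lies between them, 64.8 kb from Foxq1 and 175 kb from Foxc1, all on the plus strand of GRCm38. Their levels over the classes were not alike. Foxq1, known for its presence in brain capillary endothelium, was an EC message in both libraries, while Foxf2 and Foxc1, both used in the development of vessel walls and of the mesenchyme, were also found in mural barcodes.

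Foxq1 had 1478 UMIs in Tie2-GFP endothelial barcodes (430.4 CPM, 409 to 453) and 304 in those of the NG2-DsRed library (515 CPM, 459 to 576). Mural barcodes held 2 UMIs (6.02 CPM, 0.73 to 21.7), and the endothelial to mural ratio was 85.6 with a wide interval of 23.5 to 710.1. The 87 intermediate barcodes held 5 UMIs, 1 each in 5 barcodes (3.80 CPM, 1.24 to 8.88), 113-fold less (48.4 to 349). The NG2-DsRed intermediate barcodes held 7 UMIs (26.5 CPM, 19.4-fold less), 6 of them in a barcode that also met the endothelial rule. Foxq1 UMIs ranged from 0 in 90 of the 379 Tie2-GFP endothelial barcodes to 44 in 1 of them. These counts were not set to equal depth, which ran from 1033 to 32595 UMIs in the 379.

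Foxf2 had 230 UMIs in Tie2-GFP endothelial barcodes (67.0 CPM, 58.6 to 76.2) and 67 in NG2-DsRed endothelial barcodes (114 CPM, 88.0 to 144). In mural barcodes it had 16 UMIs in 13 of 97 barcodes (48.1 CPM, 27.5 to 78.2). The endothelial level within the NG2-DsRed library was 2.36-fold higher (1.35 to 4.36), but in the 16 endothelial barcodes with at most 1 mural gene it was 78.5 CPM (35.9 to 149) and the ratio of 1.63 had an interval that included 1 (0.64 to 3.92). The mural UMIs were not matched in intermediate barcodes, where Foxf2 was found in 0 of 87 (which allows a share of up to 3.45%) and in 1 of 25. The 22 of those 25 with at most 1 endothelial and 1 mural gene held 0 Foxf2 UMIs.

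Foxc1 was, of the 10 factors, the one whose endothelial and mural levels lay closest in the NG2-DsRed library. It had 757 UMIs in Tie2-GFP endothelial barcodes (220.4 CPM, 205 to 237), 100 in NG2-DsRed endothelial barcodes (169 CPM, 138 to 206) and 80 in mural barcodes (241 CPM, 191 to 299.6). The mural level was 1.42-fold that of the endothelial barcodes of the same library (1.05 to 1.93), and its interval overlapped that of the Tie2-GFP endothelial barcodes. Against the 16 endothelial barcodes with at most 1 mural gene (175 CPM, 107 to 269.5) the ratio of 1.38 had an interval that included 1 (0.84 to 2.38). At equal depth Foxc1 was expected in 37.8%, 33.7% and 43.8% of the same 3 classes. Both intermediate classes were far lower, at 17.5 CPM (11.1 to 26.3) and 15.1 CPM (4.12 to 38.8). Of the 4 Foxc1 UMIs behind the latter value, only 1 (4.44 CPM) lay in the 22 barcodes with at most 1 endothelial and 1 mural gene.

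Within ECs the 3 genes were found together in 94 of 379 Tie2-GFP barcodes (24.8%) and none of them in 36 (9.5%). In mural barcodes all 3 were found together in 0 of 97, but Foxq1 had only 2 UMIs there, so this 0 says little about joint presence. Foxq1 overlaps A530084C06Rik, annotated as a protein-coding gene on the opposite strand, which had 14 and 6 UMIs in the Tie2-GFP and NG2-DsRed libraries.

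RefSeq promoter windows, from 250 bases before to 50 after a start site on GRCm38.p6, were held for 4 of the 10 factors (Erg with 3 starts, Foxf2, Foxc1 and Nr2f2). Those of the neighbouring genes Foxf2 and Foxc1 are shown because both were found in mural as well as endothelial barcodes. For Erg, an EC factor, the downstream window is shown, which is the only one of its 3 with a match to the motifs below. The window of Nr2f2 is shown as that of a factor higher in mural barcodes. The windows were searched on both strands for CCGGAA (ETS), ACAAT (SOX) and TGTTTA (forkhead), and matches are in capitals, each strand reading 5′ to 3′ along the gene.
Foxf2 (chr13:31625566-31625865, plus strand): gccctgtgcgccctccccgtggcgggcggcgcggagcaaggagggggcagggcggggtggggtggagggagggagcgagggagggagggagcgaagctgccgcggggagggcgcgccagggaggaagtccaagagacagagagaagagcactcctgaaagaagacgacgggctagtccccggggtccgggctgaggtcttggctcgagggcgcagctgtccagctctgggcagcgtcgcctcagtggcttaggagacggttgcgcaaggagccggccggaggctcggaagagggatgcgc
Foxc1 (chr13:31806396-31806695, plus strand): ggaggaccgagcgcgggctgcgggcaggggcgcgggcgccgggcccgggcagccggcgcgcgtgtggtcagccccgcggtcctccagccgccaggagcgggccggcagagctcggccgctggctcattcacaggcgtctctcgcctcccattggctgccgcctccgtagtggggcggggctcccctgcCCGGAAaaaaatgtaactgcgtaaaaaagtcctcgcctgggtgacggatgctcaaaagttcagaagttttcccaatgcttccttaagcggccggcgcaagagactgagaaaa
Erg, downstream start (chr16:95459299-95459598, minus strand): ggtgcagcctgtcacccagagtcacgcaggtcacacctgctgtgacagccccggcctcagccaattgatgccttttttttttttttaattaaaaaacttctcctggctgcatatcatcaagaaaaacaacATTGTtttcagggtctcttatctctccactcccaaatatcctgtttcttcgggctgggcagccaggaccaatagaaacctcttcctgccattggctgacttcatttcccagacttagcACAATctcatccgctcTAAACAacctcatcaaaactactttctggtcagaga
Nr2f2 (chr7:70366697-70366996, minus strand): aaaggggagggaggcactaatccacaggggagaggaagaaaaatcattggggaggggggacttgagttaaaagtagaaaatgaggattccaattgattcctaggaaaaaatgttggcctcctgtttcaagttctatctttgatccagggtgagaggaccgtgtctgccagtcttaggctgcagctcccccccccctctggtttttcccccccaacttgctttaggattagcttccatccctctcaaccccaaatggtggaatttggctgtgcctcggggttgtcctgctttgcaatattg

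The Foxc1 window held 1 ETS match, at position 189 of 300. The Erg window held 2 SOX matches, at positions 131 and 249, and 1 forkhead match, at position 265. The Foxf2 and Nr2f2 windows held none of the 3 motifs, and neither did the remaining windows of Erg. Of 32851 windows of the same length, 14.9% held the ETS letters, 31% the SOX letters and 13.4% the forkhead letters, so that such matches are common. The Foxf2 window was 71.3% G and C, against a median of 52.7% over all windows.

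Tbx2, a T-box repressor known in the melanocyte lineage, was the factor with the lowest endothelial level relative to the other classes. It had 700 UMIs in 78 of the 87 Tie2-GFP intermediate barcodes (533 CPM, 494 to 574) and 123 UMIs in 23 of the 25 NG2-DsRed intermediate barcodes (465 CPM, 387 to 555). Mural barcodes held 109 UMIs in 58 of 97 (328 CPM, 269.3 to 396). The intermediate level was 1.42-fold the mural level within the NG2-DsRed library (1.09 to 1.85), and 1.50-fold (1.14 to 1.97) in the 22 intermediate barcodes with at most 1 endothelial and 1 mural gene. At equal depth it was expected in 67.1% and 64.7% of intermediate and 49.0% of mural barcodes.

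In ECs the Tbx2 UMIs lay where the mural genes were. The 379 Tie2-GFP endothelial barcodes held 22 UMIs (6.41 CPM, 4.01 to 9.70), of which 18 were in the 26 barcodes with at least 3 mural genes and 2 in the 347 with at most 1 (0.69 CPM, 0.08 to 2.50). All 32 UMIs of the NG2-DsRed endothelial barcodes (54.2 CPM, 37.1 to 76.6) were in the 34 barcodes with at least 3 mural genes, and 0 were in the 16 with at most 1. Tbx2 in the Tie2-GFP intermediate barcodes was 83.2-fold higher than in all endothelial barcodes (54.5 to 134) and 770.0-fold higher (212 to 6371) than in those with at most 1 mural gene. Mural barcodes were 6.05-fold higher (4.05 to 9.27) than the endothelial barcodes of their own library, and at least 12.5-fold higher than the 16 with at most 1 mural gene. The neighbouring T-box gene Tbx4, 44.5 kb from Tbx2 (chr11:85832551-85841948, plus strand), had 0 UMIs in all of these classes.

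Nr2f2 (chr7:70351944-70366735, minus strand), the nuclear receptor COUP-TFII, known for venous identity and for a role in mesenchyme, was highest in mural cells. It had 232 UMIs in 76 of the 97 mural barcodes (698 CPM, 611 to 794), 110 in the NG2-DsRed endothelial barcodes (186 CPM, 153 to 225) and 259 in the Tie2-GFP endothelial barcodes (75.4 CPM, 66.5 to 85.2). The mural level was 3.75-fold that of the endothelial barcodes of the same library (2.97 to 4.74) and 20.0-fold (7.71 to 74.0) that of the 16 with at most 1 mural gene, which held 4 UMIs. Of the endothelial UMIs, 90% in the NG2-DsRed and 37.1% in the Tie2-GFP library were in barcodes with at least 3 mural genes. The remaining endothelial level was compared with that of intermediate barcodes, with 150 UMIs in 89 of 347 Tie2-GFP endothelial barcodes (51.9 CPM, 43.9 to 60.9) against 25 UMIs in 12 of 87 intermediate barcodes (19.0 CPM, 12.3 to 28.1), a ratio of 2.73 (1.78 to 4.35). In the NG2-DsRed library the ratio of 2.62 had an interval that included 1 (0.44 to 17.9), and under the study's limits on barcodes, which leave 6 intermediate barcodes, the log2 ratio over all Tie2-GFP endothelial barcodes was -0.10. The median depths were 7233 and 15955 UMIs, and at equal depth the expected shares were 10.8% and 4.0%.

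**Figure D3:**
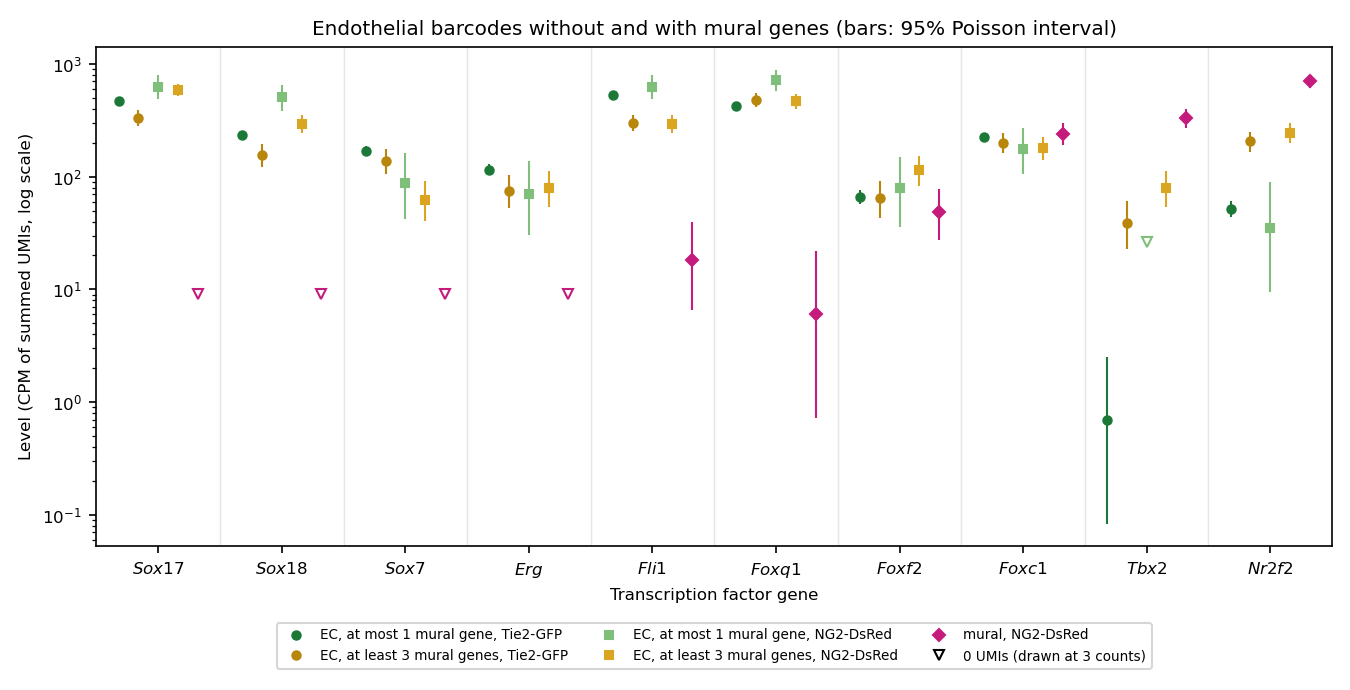
Level of each factor in CPM on a log scale in endothelial barcodes with at most 1 and with at least 3 mural genes, for both libraries, beside mural barcodes of the NG2-DsRed library, with 95% Poisson intervals and open triangles at the level of 3 counts for 0 UMIs. Tbx2 goes from 0.69 to 38.5 CPM and Nr2f2 from 51.9 to 206 CPM between these sets in the Tie2-GFP library.

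Levels of the EC factors also differed between endothelial barcodes with and without mural genes, and so did the further endothelial genes, which summed to 3303 against 4669.7 CPM in the Tie2-GFP and to 3174 against 4607 CPM in the NG2-DsRed library. In the Tie2-GFP library the 26 barcodes with at least 3 mural genes had Fli1 at 299.7 CPM (252 to 354) against 533 CPM (507 to 560.3) in the 347 with at most 1, a log2 ratio of -0.83 (-1.09 to -0.58). The log2 ratio of the same sets was -0.52 (-0.77 to -0.28) for Sox17, -0.59 (-0.96 to -0.24) for Sox18 and -0.62 (-1.17 to -0.12) for Erg. It included 0 for Sox7, Foxq1, Foxf2 and Foxc1, with Foxq1 at 479.5 CPM against 419 CPM. In the NG2-DsRed library the 34 and the 16 barcodes gave a log2 ratio of -1.11 (-1.54 to -0.66) for Fli1, -0.79 (-1.26 to -0.31) for Sox18 and -0.62 (-1.002 to -0.23) for Foxq1, while the intervals of Sox17 and Erg included 0. Nr2f2 was 3.96-fold higher (3.03 to 5.15) in the Tie2-GFP barcodes with mural genes, and Tbx2 55.7-fold (13.3 to 495). Those 26 barcodes carried the further mural genes at 1381 CPM against 10.4 CPM, at more than the depth of the others. The 34 NG2-DsRed barcodes carried them at 2201 against 166 CPM, with a median depth of 10985.5 against 6202.5 UMIs. Macrophage genes stood at 114 against 0 CPM there, but none had a UMI in as many as 10% of the 34. Of 47 macrophage UMIs in all NG2-DsRed endothelial barcodes, 41 lay in the 2 that were also intermediate. The part of mural genes, macrophage genes and depth in the differences was not tested.

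**Figure D4:**
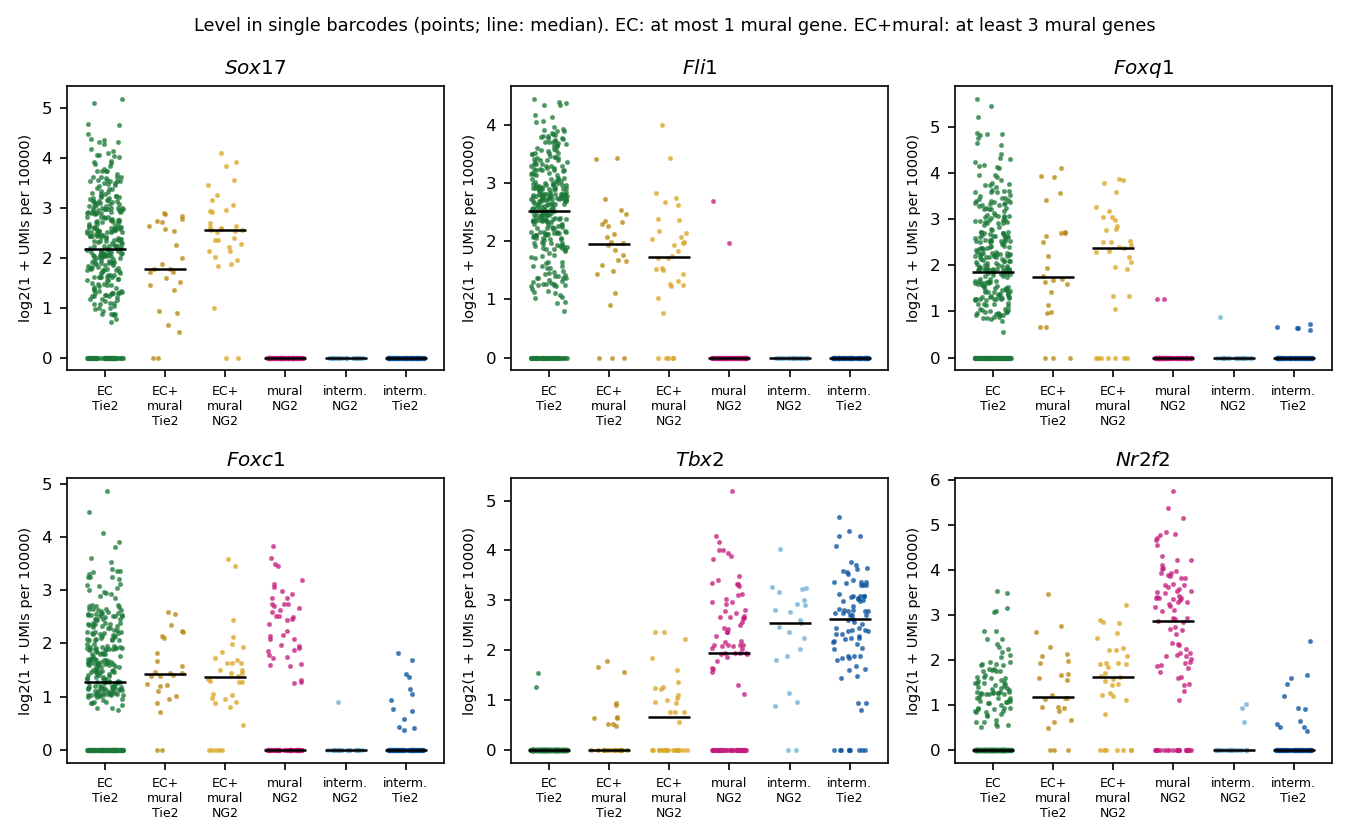
Each point is 1 barcode, with its level as log2(1 + UMIs per 10000 UMIs of the barcode) on the vertical axis and the median of each set as a line, for 6 factors and 6 sets of barcodes of the Tie2-GFP and NG2-DsRed libraries (EC, endothelial with at most 1 mural gene; EC+mural, endothelial with at least 3; interm., intermediate and not endothelial). Sox17, Fli1 and Foxq1 lie at 0 in nearly all mural and intermediate barcodes, and Tbx2 lies at 0 in all but 2 of the 347 ECs.

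The Tie2-GFP library could be compared only with caution for mural cells. Its 4 mural barcodes held 6 Tbx2 and 5 Nr2f2 UMIs and 0 UMIs of the other 8 factors. By the 2-fold rule 7 factors were higher in endothelial barcodes, where 8.9% of genes were, each against 0 UMIs, and the count was 3 or 1 under other class rules. Tbx2 and Nr2f2 (2 factors) were higher in mural barcodes, where 59.4% of genes were counted as higher. Both percents of genes depend on the count added to each sum, which is large beside the UMIs of 4 barcodes. With it, Foxf2 had a log2 ratio of endothelial to mural level of only 0.73, from 230 endothelial and 0 mural UMIs. A gene with fewer endothelial and 0 mural UMIs can thus count as higher in mural barcodes. Neither percent therefore shows how many genes differ between these classes. Against the level that 0 counts allow (243 CPM), Fli1 was at least 2.05-fold higher in ECs, Sox17 at least 1.85-fold and Foxq1 at least 1.77-fold. The bounds of Sox18, Sox7, Erg, Foxf2 and Foxc1 were below 1, so a higher level in ECs was not detectable for them at this depth.

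By the 2-fold rule the split between endothelial and intermediate barcodes was the same in both libraries. In the Tie2-GFP library 9 factors were at least 2-fold higher in endothelial barcodes, where 28.5% of genes were, and 1 (Tbx2) was higher in intermediate barcodes, where 20.7% were. In the NG2-DsRed library the 9 and the 1 were the same genes, against 24.8% and 17.1% of genes. For Nr2f2 there, the interval included 1 once barcodes with mural genes were set aside (ratio 2.62, 0.44 to 17.9). The study's limits leave 6 Tie2-GFP and 9 NG2-DsRed intermediate barcodes. Under them 7 of the 10 Tie2-GFP ratios moved outside their intervals and 1 (Nr2f2) turned in sign. In the NG2-DsRed library 5 of 10 moved. Between mural and intermediate barcodes of the NG2-DsRed library, 6 factors had enough UMIs. Of these Foxf2, Foxc1 and Nr2f2 were at least 2-fold higher in mural barcodes, where 26.3% of genes were. Sox18 was higher in intermediate barcodes, where 16.3% were, and all of its UMIs lay in the 2 barcodes that also met the endothelial rule.

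Endothelial barcodes were divided next by arterial and venous genes other than the factors. The paper reports that scores of arterial, venous and capillary signatures did not separate its strial EC clusters. Leaning is used here as a count of detected genes and does not name a vessel type. An arterial-leaning barcode had UMIs for at least 2 of 10 arterial genes (such as Gja4, Gja5, Bmx and Sema3g) and for more of these than of 10 venous genes (such as Slc38a5, Vcam1, Vwf and Ackr1), and the reverse held for a venous-leaning barcode. The Tie2-GFP library gave 82 arterial-leaning and 233 venous-leaning barcodes, and the NG2-DsRed library 30 and 20. Differences in the SOX F, ETS and forkhead factors stayed under 2-fold. Sox17 was at 516 CPM (470.0 to 565) in arterial-leaning and 414 CPM (386 to 442) in venous-leaning barcodes of the Tie2-GFP library, 1.25-fold higher (1.11 to 1.40). The NG2-DsRed library gave 703 and 529.9 CPM, 1.33-fold (1.05 to 1.69). Sox7, Fli1 and Foxc1 were higher in venous-leaning barcodes of the Tie2-GFP library by 1.34-fold (1.10 to 1.64), 1.25-fold (1.11 to 1.40) and 1.21-fold (1.02 to 1.44). The intervals of those 3 factors in the NG2-DsRed library included 1, and with at most 1 mural gene the interval of Sox7 in the Tie2-GFP library did too (0.97 to 1.55). Sox18 was 1.55-fold higher (1.14 to 2.12) in venous-leaning barcodes of the NG2-DsRed library. In the Tie2-GFP library its log2 ratio of arterial-leaning to venous-leaning was 0.12 (-0.13 to 0.36) over all barcodes. With at most 1 mural gene it was 0.32 (0.05 to 0.59), higher in arterial-leaning. The value over all barcodes depended on the weighting. Summed UMIs gave 226 and 209 CPM in arterial-leaning and venous-leaning barcodes, and the mean with each barcode weighted equally 269.6 and 198.6 CPM.

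Nr2f2 differed more, once barcodes with mural genes were set aside. Over all endothelial barcodes of the Tie2-GFP library it was at 71.8 CPM (55.4 to 91.5) in arterial-leaning and 77.4 CPM (65.9 to 90.4) in venous-leaning barcodes. With at most 1 mural gene, a division made after the values were seen, 67 arterial-leaning barcodes held 6 UMIs in 4 barcodes (9.32 CPM, 3.42 to 20.3), and 222 venous-leaning barcodes held 126 UMIs in 74 barcodes (67.4 CPM, 56.2 to 80.3). The venous-leaning level was then 7.24-fold higher (3.24 to 20.1). In the NG2-DsRed library, where most endothelial barcodes carry mural genes, the order was the other way, with 242 CPM (190.0 to 304) in arterial-leaning and 123 CPM (79.4 to 181) in venous-leaning barcodes. Only 4 arterial-leaning barcodes of that library had at most 1 mural gene, and they held 0 Nr2f2 UMIs, which allows up to 142 CPM. The 9 venous-leaning barcodes with at most 1 mural gene held 2 UMIs (27.6 CPM), so no order can be read from them.

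By the 2-fold rule, 1 factor (Tbx2, with 10 and 5 UMIs) was higher in the arterial-leaning barcodes of the Tie2-GFP library, where 6.49% of genes were, and 0 in the venous-leaning barcodes, where 4.78% were. In those with at most 1 mural gene the count was 0 of 9 for arterial-leaning (5.61% of genes) and 1 of 9, Nr2f2, for venous-leaning (6.55%), and Tbx2 was left with 2 UMIs. The NG2-DsRed library gave 0 in either direction, against 9.77% and 5.95% of genes.

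**Figure D5:**
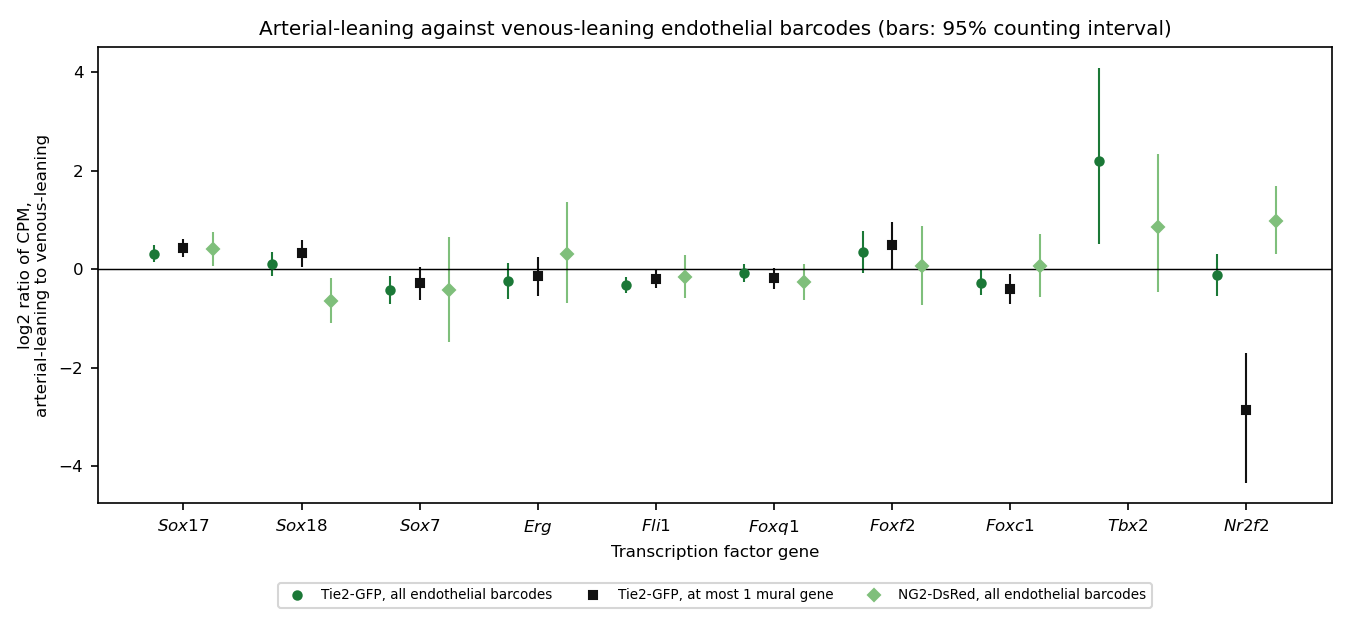
Log2 ratio of the CPM in arterial-leaning to that in venous-leaning endothelial barcodes (vertical axis) for each factor, with 95% counting intervals, for all endothelial barcodes of each library and for those of the Tie2-GFP library with at most 1 mural gene. Nr2f2 lies at -2.86 in the last set and Sox17 lies above 0 in all 3 sets. Tbx2 is not drawn where a set held 0 UMIs.

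Mural barcodes of the NG2-DsRed library were divided in the same way into 40 contractile barcodes (at least 2 of Acta2, Tagln and Myh11) and 51 non-contractile barcodes (at most 1 of these, and Kcnj8 or Abcc9). Only 4 factors had enough UMIs, and none was 2-fold higher in the contractile barcodes (9.79% of genes were) or in the non-contractile barcodes (15.2%). Nr2f2 was at 544 CPM in contractile and 814 CPM in non-contractile barcodes, 1.49-fold higher in the latter (1.13 to 1.98). Tbx2 stood at 306 and 320.0 CPM, with a log2 ratio of contractile to non-contractile of -0.06 (-0.66 to 0.54), and Foxc1 at 233 and 257 CPM, with -0.15 (-0.82 to 0.53). Each interval leaves room for a difference of about the size seen for Nr2f2.

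The same class could also be read in both libraries. Sox7 was 2.48-fold higher (log2 ratio 1.31, 0.85 to 1.80) in endothelial barcodes of the Tie2-GFP than of the NG2-DsRed library, and 1.95-fold (log2 ratio 0.96, 0.07 to 2.03) with at most 1 mural gene. Sox18 went the other way, 1.53-fold and 2.18-fold higher in the NG2-DsRed library in the same 2 sets. Nr2f2 was 2.47-fold higher in the NG2-DsRed endothelial barcodes as a whole, but with at most 1 mural gene its log2 ratio of Tie2-GFP to NG2-DsRed level was 0.57 (-0.81 to 2.47). Tbx2 in intermediate barcodes with at most 1 endothelial and 1 mural gene stood at 533 and 493 CPM, a log2 ratio of 0.11 (-0.18 to 0.42).

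Barcodes carried several of the factors at a time. The median endothelial barcode had a UMI for 6 of the 10 factors in the Tie2-GFP library and for 7 in the NG2-DsRed library. The median was 2 in NG2-DsRed mural and 1 in intermediate barcodes. These counts were not set to equal depth. Median depth was 7431 and 9146 UMIs in the endothelial, 3027 in the mural, and 15955 and 10383 in the intermediate barcodes. Only 4 of 379 Tie2-GFP endothelial barcodes had a UMI for none of the factors. Within the 379 barcodes the Pearson correlations of log2(1 + UMIs per 10000) among the 45 pairs of factors lay between -0.09 and 0.22, with a median of 0.03, which in such sparse counts is no sign of shared or separate use. Across all 470 classified Tie2-GFP barcodes, where differences between classes and in depth enter, each factor was also compared with 9796 genes by the same correlation. Tbx2 was closest to Hhatl (0.90), Hpse (0.88) and Kcnj10 (0.88, itself used to define intermediate barcodes). Fli1 was closest to Tmsb4x (0.63), Abcg2 (0.62) and Cldn5 (0.62, used to define endothelial barcodes), Sox17 to Ly6c1 (0.58), Flt1 (0.56) and Cdh5 (0.56, the latter 2 used by the rule), and Foxq1 to Abcb1a (0.49), a drug efflux pump of barrier endothelium, Igfbp7 (0.48) and Ly6e (0.47). The closest gene was Hspb1 (0.49) for Sox18, Emp1 (0.48) for Sox7, Junb (0.44) for Foxc1, Tmsb4x (0.41) for Erg, Rgs5 (0.39, a rule gene) for Nr2f2 and Grap (0.33) for Foxf2.

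Other transcription factors gave a frame for these values, compared between endothelial and mural barcodes of the NG2-DsRed library. Of 12 other endothelial factors, 10 had enough UMIs, and 6 were at least 2-fold higher in endothelial barcodes, against 13.8% of all genes. Lmo2, a partner of haematopoietic and endothelial factors, stood at 598 against 3.01 CPM, and Mecom at 210.1 against 3.01 CPM. The hypoxia factor Epas1 (671 against 743 CPM) and Mef2c (539 against 945 CPM) were not among the 6, and 2 of the 10 (the Notch targets Heyl and Hey2) were higher in mural barcodes, against 19.7% of all genes. Of 12 other mural factors, a list that also holds Heyl, 8 had enough UMIs and 7 were higher in mural barcodes, led in UMIs by Ebf1, at 2124 against 868 CPM, whereas Mef2a (346 against 283 CPM) was not.

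For the relatives of the 10 factors the same shares of all genes apply, 13.8% higher in endothelial and 19.7% in mural barcodes, and counts as small as these say little beside them. Of 8 other forkhead genes with enough UMIs, Foxp1 (581 against 172 CPM) and Foxo1 (93.2 against 15.0 CPM) were higher in endothelial barcodes, and Foxs1 and Foxd1 in mural barcodes. Among 8 other T-box and nuclear receptor genes, Nr2f1, the closest relative of Nr2f2, stood at 158 CPM in endothelial and 746 CPM in mural barcodes. Tbx3, Tbx18 and Nr2f6 were higher in mural barcodes as well, while Tbx1 had 64 UMIs in endothelial and 0 in mural barcodes. Of the other ETS genes, 3 of 9 (Ets2, Elf1 and Etv3) were higher in endothelial and none in mural barcodes. Of the other SOX genes, 0 of 4 were higher in endothelial barcodes and 2 (Sox5 and Sox12) in mural barcodes, while Sox4 stood at 110.1 and 114 CPM and Sox13 at 59.3 and 57.2 CPM. Pigment cell factors marked the intermediate barcodes, with Mitf at 708 CPM and Sox10 at 287 CPM in the Tie2-GFP library against 3.79 and 1.16 CPM in its endothelial barcodes, and Pax3 at 215 CPM against 0 UMIs. Lef1, listed with them as a Wnt effector, went the other way, with 1771 UMIs (516 CPM) in Tie2-GFP endothelial and 0 in intermediate barcodes. Foxs1, Foxd1, Tbx3, Tbx18, Elf1, Etv3, Hey2 and Sox12 were named after their values were seen.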

How the data were processed

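The authors dissociated strial tissue, sorted cells by fluorescence where enrichment was needed (which libraries were sorted is not stated), and deposited raw UMI counts per gene and barcode for each library. The submitters' processing notes name bcl2fastq 2.20.0.422 and mm10, and the matrix headers name software versions 7.0.0 (Tie2-GFP) and 3.0.0 (NG2-DsRed). The annotation and the counting of introns are not given in the sources used here. All deposited barcodes were used. UMIs were summed per class and library and given as CPM with exact Poisson intervals, shares above 0 with Clopper-Pearson intervals, and ratios with exact conditional binomial intervals. A total of 0 was read as up to 3 counts, or 3 barcodes for a share. Levels are not divided by gene length and are not compared between genes. Shares at equal depth are hypergeometric expectations at 2527 UMIs, the percentile 10 of classified barcodes. Coordinates are those of GENCODE M21 (GRCm38). Genes set in advance to be named were the 10 factors, at most 4 examples of each list of other factors (those with the most UMIs) and the 3 genes most like each factor. Of those examples, Rora, Foxn3, Foxo3, Elk3, Elf2, Sox6 and Srf were left out above. Only Srf of these met the 2-fold rule between endothelial and mural NG2-DsRed barcodes, being higher in mural barcodes. The factors and lists were chosen with earlier results of these data known. Python 3.11.15, numpy 2.4.6, scipy 1.17.1, pandas 2.3.3 and matplotlib 3.10.9 were used, and ratios and thinning were tested on simulated data. Alternatives were the study's limits on genes, UMIs, mitochondrial and ribosomal percent (399 and 165 barcodes pass), class rules, weights, totals, minimum counts and folds.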

Additional observations from a re-analysis of the deposited data

Results flagged for a closer look

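Barcodes of no class also held UMIs of the factors, above the 3 counts that a total of 0 allows. In the 163 such barcodes of the Tie2-GFP library, whose median depth was 1533 UMIs and median mitochondrial share 75.6%, Foxc1 stood at 43.2 CPM, Tbx2 at 34.2 CPM, Nr2f2 at 67.0 CPM, Fli1 at 7.44 CPM and Foxq1 at 5.96 CPM. The 29 Foxc1 UMIs came from 6 barcodes, in which genes of fibrocytes and fibroblasts (Dcn, Otos and Lum, with Col1a1 at 0) summed to 3501 CPM and genes of basal cells (Cldn11, Tjp3, Sox8) to 2165 CPM. The 23 Tbx2 UMIs came from 16 barcodes, in which genes of marginal cells (Kcne1, Kcnq1, Esrrb, Atp13a5) summed to 2264 CPM. The 5 barcodes with a Fli1 UMI carried macrophage genes at 7390 CPM and endothelial genes at 1462 CPM. In the 21 such barcodes of the NG2-DsRed library, Tbx2 stood at 107 CPM (7 UMIs), Nr2f2 at 123 CPM (8 UMIs) and Fli1 at 61.4 CPM (4 UMIs). The 6 barcodes with Nr2f2 there carried the further mural genes at 11956 CPM.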

How the results depend on the processing

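Each comparison rests on 1 library per line. No paired analysis was possible because each line has 1 library and no result comes from a test. Of 510 log2 ratios recomputed under alternatives, 57 moved outside the counting interval of the reported value and 6 were counted as turned in sign. Only a ratio that was at least 2-fold, with at least 10 UMIs, could be counted as turned. Other changes of sign occurred and lie among the moved or the unmoved ratios. The other 447 were counted as unmoved. They include ratios with 0 UMIs in both classes, which have no interval and could not be counted as moved. The count of factors higher in endothelial than in mural NG2-DsRed barcodes lay between 5 and 7, and that higher in mural barcodes was 1 at 4-fold in place of 2. In the Tie2-GFP library, with few mural barcodes, the count higher in endothelial barcodes was 3 under stricter class rules (1 mural barcode) and 1 with mural barcodes set by more mural than endothelial UMIs (25 barcodes), and the count higher in mural barcodes was 1 without barcodes of a pair of classes and 1 with at least 50 UMIs. Those counted as turned included Erg (-0.60, stricter rules) and Foxq1 (-0.28, mural by UMIs) between endothelial and mural Tie2-GFP barcodes. Nr2f2 turned between endothelial and intermediate Tie2-GFP barcodes under the study's limits (-0.10), which leave 6 intermediate barcodes. Sox18 turned between mural and intermediate NG2-DsRed barcodes (0.030 under stricter rules, 1.30 with mural by UMIs). Tbx2 turned between arterial-leaning and venous-leaning Tie2-GFP barcodes without barcodes of a pair of classes (-0.79). The cause was not tested. Depth limits what a total of 0 shows to 9.03 CPM in NG2-DsRed mural and 2.28 CPM in Tie2-GFP intermediate barcodes. The mural values also depend on the class rule. With mural barcodes set by more mural than endothelial UMIs, 8 of 10 NG2-DsRed mural levels moved outside their intervals. So did 6 of 10 endothelial to mural ratios of that library. Endothelial levels moved as well. Without barcodes of a pair of classes, 6 of 10 NG2-DsRed and 3 of 10 Tie2-GFP endothelial levels lay outside their intervals. At equal depth the shares of endothelial barcodes with a UMI moved for 10 of 10 factors in each library.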
